A study of Mus musculus with 2 samples.

Results

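The retinoid pathway genes described here are 9 genes that make retinoic acid (Rdh10, Aldh1a1, Aldh1a2 and Aldh1a3), carry retinoids (Rbp4, Crabp1 and Crabp2) or respond to retinoic acid as nuclear receptors (Rara and Rarb). They are 9 of 18193 genes with a value, and 12 of the 34945 probe sets whose annotation holds a single gene symbol. The genes were chosen by name around Aldh1a3, with its transgenic minus control difference on these arrays already known, so every value below is a description and none is tested. No probe set annotated to several genes included one of the 9. RNA of pancreatic islets from male mice aged 6 weeks was hybridised to mouse expression arrays. One sample came from mice that overexpress miR-141 and miR-200c (genotype label miR-141/200c_overexpression) and the other from C57Bl6 control mice (genotype label Bl6_control). Islets of both received no treatment between extraction and RNA preparation. The transgenic sample is titled Ripmir_islets, which the labels do not spell out. They give in words neither the promoter that drives the microRNAs nor the number of mice behind each sample, and they name beta cells as the source and islets as the tissue. There was 1 array for each genotype (n = 1), so no value has a replicate error, no difference has a replicate check and no p-value can be given.

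Retinoic acid is made from vitamin A. Retinol travels in blood on Rbp4, is oxidised to retinaldehyde by enzymes such as Rdh10, and retinaldehyde is oxidised irreversibly to retinoic acid by the retinaldehyde dehydrogenases Aldh1a1, Aldh1a2 and Aldh1a3. Inside cells Crabp1 and Crabp2 bind retinoic acid, and the receptors Rara and Rarb, paired with a retinoid X receptor, bind repeated half-sites in DNA and switch target genes. In the pancreas the pathway acts in the development of endocrine cells, and Aldh1a3 is widely used as a marker of beta cells that have lost their mature identity in diabetic mice.

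The overexpressed microRNAs are shown because they define the transgenic group. Their mature 3' strands, credited to RefSeq on build GRCm38.p6, lie on the minus strand at chr6:124717917-124717938 for miR-141-3p and chr6:124718324-124718346 for miR-200c-3p. Capitals mark the seed, bases 2 to 8, which differs between both microRNAs at 1 base.
mmu-miR-141-3p: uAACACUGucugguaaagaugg
mmu-miR-200c-3p: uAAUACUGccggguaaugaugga
No reading of these microRNAs was taken from the arrays, so the overexpression was not checked here.

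A response element is shown for Rarb and for Cyp26a1, which breaks down retinoic acid, because both genes are textbook direct targets of the receptors and give a readout of the pathway that is separate from the synthesis enzymes. Windows from 250 bases before to 50 bases after the gene start were searched on both strands for direct repeats of a half-site, read as AGGTCA or AGTTCA or GGGTCA or GGTTCA, spaced by 5 bases (DR5) or by 2 bases (DR2). Among members, 11 windows of 6 genes (Aldh1a1, Aldh1a2, Rbp4, Crabp1, Rara and Rarb) were in the RefSeq promoter table. A DR5 repeat was found in 32 of 32851 windows of all genes (0.0974%), and among the members only in the window of Rarb. Of 15 known target genes with 22 windows, Rarb and Cyp26a1 held one. A DR2 repeat was found in 88 windows (0.268%) and in none of the 11. The stretch printed for Rarb is chr14:16575493-16575549 on the minus strand, and that for Cyp26a1 is chr19:37697756-37697812 on the plus strand, with its repeat read on the opposite strand (both GRCm38.p6). Each stretch is 57 bases long, and capitals mark the 2 half-sites of the repeat within it.
Rarb: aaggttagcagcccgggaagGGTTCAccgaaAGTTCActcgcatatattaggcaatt
Cyp26a1: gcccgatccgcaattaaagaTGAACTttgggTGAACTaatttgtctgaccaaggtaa
A match describes these letters and is not evidence of receptor binding in islets.

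The deposited values are log2 RMA expression values per probe set. Both arrays had a median of 5.76, which served as the floor: a gene was kept when its brightest probe set reached 5.76 on at least 1 array, as 12143 genes did. The central 95% of kept genes differed by -0.63 to 1.0 (transgenic minus control, log2) around a median of 0.029. The 24 poly-A spike control probe sets all read higher in transgenic islets (median difference 1.51), and the amounts of RNA and of spikes are not given in the labels. The islet label held on both arrays for the hormone genes, with Ins2 at 14.95 in transgenic against 15.02 in control islets, Gcg at 14.13 and 14.19, and Sst at 13.99 on both. Acinar enzyme genes also read high on both arrays, such as Cpa1 at 14.17 and 14.04. The mean log2 value over 10 acinar markers was 11.85 in transgenic and 11.77 in control islets, beside 12.00 and 12.07 over 10 beta cell markers. In these whole-islet samples, more cells of a type and more RNA per cell cannot be told apart.

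Aldh1a3 was higher in the transgenic sample by all 3 of its probe sets, but they differed widely in how much. The probe set 1448789_at read 8.74 in transgenic against 4.95 in control islets, a log2 difference of 3.79 or 13.8-fold. Its control value lay below the floor, so array background limits this fold. The probe set 1417642_at read 6.24 in transgenic against 5.03 in control islets, 2.30-fold higher, again from a control value below the floor. The probe set 1427395_a_at read 7.01 and 6.30, above the floor on both arrays, and differed by 0.71 or 1.64-fold. Of the 3, it alone was above the floor in control islets.

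The probe sets of Aldh1a3 thus gave differences that spanned 3.07 on the log2 scale. Among 2022 genes with at least 3 probe sets at the floor, none of the others spanned as much, and the median span was 0.41. The 2 probe sets with the larger differences, 1448789_at and 1417642_at, were designed from the same cDNA record, and the third from another record. Only 6 of all single-symbol probe sets had a larger difference than 1448789_at, compared with 307 for 1417642_at and 1178 for 1427395_a_at. The mean of the 3 differences was 1.90. All 3 measure one RNA sample and so are not replicates, and which stretch or isoform of the transcript each one reads is not given in the sources used here. The plot of levels by probe set shows the 3 Aldh1a3 readings beside those of the other members.

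**Figure D1:**
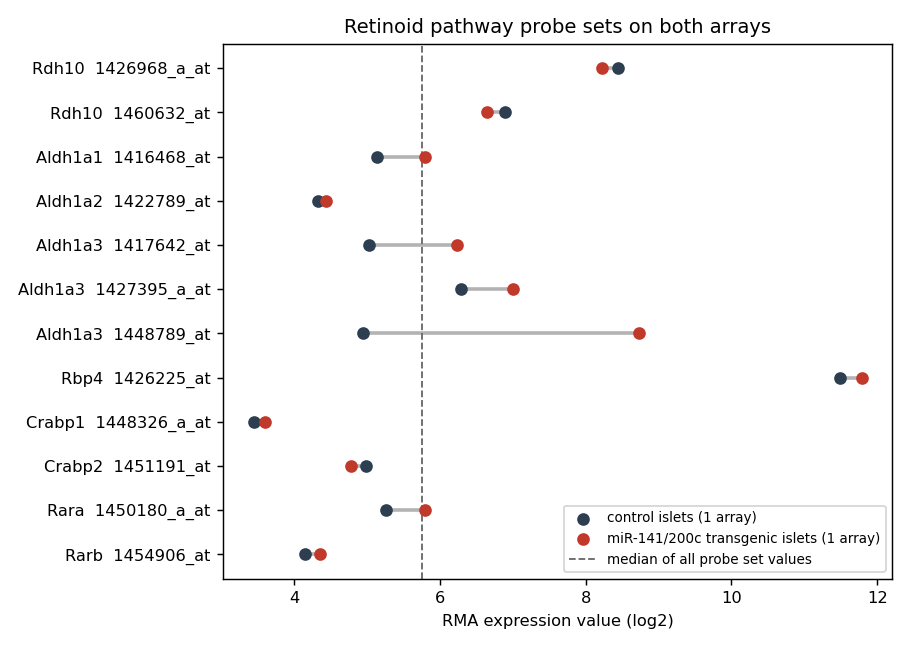
RMA expression value (log2, x axis) of each of the 12 retinoid pathway probe sets in the control (dark) and transgenic (red) sample, 1 array each, with no error bars because there are no replicates; the dashed line marks the floor, 5.76. The widest gap is that of Aldh1a3 probe set 1448789_at, from 4.95 to 8.74, and values should be compared only within a row.

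No other enzyme of retinoic acid synthesis had a reading as large as 3.79, that of Aldh1a3 probe set 1448789_at. By 1427395_a_at, above the floor on both arrays, Aldh1a3 differed by 0.71, close to the 0.65 of Aldh1a1. Aldh1a1, a retinaldehyde dehydrogenase also found in ductal and centroacinar cells, read 5.80 in transgenic against 5.14 in control islets, a difference of 0.65 or 1.57-fold. Its transgenic value was barely above the floor and its control value below it. Aldh1a7, a neighbouring mouse gene of near-identical sequence whose signal the Aldh1a1 probe set may share, differed by 0.55 (5.28 and 4.72, both below the floor), so the Aldh1a1 reading is uncertain. Aldh1a2, the main retinaldehyde dehydrogenase of embryonic mesoderm and of mesothelium, read 4.43 in transgenic against 4.33 in control islets, both below the floor. Rdh10, which makes the retinaldehyde that these enzymes use, was measured above the floor on both arrays. Its brighter probe set read 8.22 in transgenic against 8.45 in control islets, and its other probe set 6.64 and 6.89. Both gave slightly lower transgenic values, with differences of -0.23 and -0.25.

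Of the carriers only Rbp4 was above the floor. Rbp4, the plasma retinol binding protein that delta cells of the islet also express, read 11.79 in transgenic against 11.49 in control islets, a difference of 0.30. Other delta cell genes on the same arrays stood at 0.00093 (Sst) and 0.26 (Hhex). Crabp1 read 3.60 and 3.45 and Crabp2 4.78 and 4.98, in the transgenic and control sample respectively. Both cellular binding proteins were below the floor in both samples, where RMA values compress differences, so a difference was not detectable on these arrays.

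Of the receptors, Rara read 5.80 in transgenic against 5.26 in control islets, a difference of 0.54 or 1.46-fold, with only the transgenic value above the floor. Rarb, whose own gene is a target of retinoic acid receptors and carries the DR5 repeat printed above, read 4.35 and 4.15, below the floor on both arrays. Cyp26a1, which carries the other repeat shown, was below the floor as well, at 4.55 in transgenic islets with a difference of -0.44. Neither gene therefore gave a usable readout of retinoic acid activity.

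Across the 9 genes, 5 reached the floor and 4 (Aldh1a2, Crabp1, Crabp2 and Rarb) did not. Aldh1a1, Aldh1a3 (by its brightest probe set) and Rara reached it only through the transgenic sample, so the filter itself fixed the positive sign of these 3, and only Rdh10 and Rbp4 were above it on both arrays by that reading. Of the 5 kept members only Aldh1a3, read by 1448789_at, was at least 2-fold higher in the transgenic sample. Of all kept genes 2.51% were 2-fold higher. Its probe set 1427395_a_at, the brightest in control islets, differed by 0.71, and by that reading 0 members were 2-fold higher. No kept member was 2-fold lower, compared with 0.511% of all kept genes. Of the 12 probe sets 2 were at least 2-fold higher, both of Aldh1a3, against 1.51% of all single-symbol probe sets. Since the members were chosen with this contrast known, nothing is read from these shares. The other 8 genes, each by its brightest probe set, differed by -0.23 to 0.65 with a median of 0.18. Beside the large Aldh1a3 reading, the synthesis enzyme Rdh10 and the carrier Rbp4 were above the floor in both samples and differed by less than 2-fold. For Aldh1a1, Aldh1a2, both Crabp genes and both receptors at least 1 value lay below the floor, so these arrays cannot show how far they differed.

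The wider retinoid pathway was followed through 87 further genes of uptake, redox steps, breakdown, nuclear receptors, coregulators and target genes. Of these 77 had a value and 48 were kept. Among the 48, 3 were at least 2-fold higher in the transgenic sample (Tgm2, Rbp2 and Bco1) and none was 2-fold lower, where 2.51% and 0.511% of all kept genes were. Their median difference was 0.093, beside 0.029 for all kept genes, and 26 of the 48 were positive, or 54.2%, beside 54.2% of all kept genes.

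**Figure D2:**
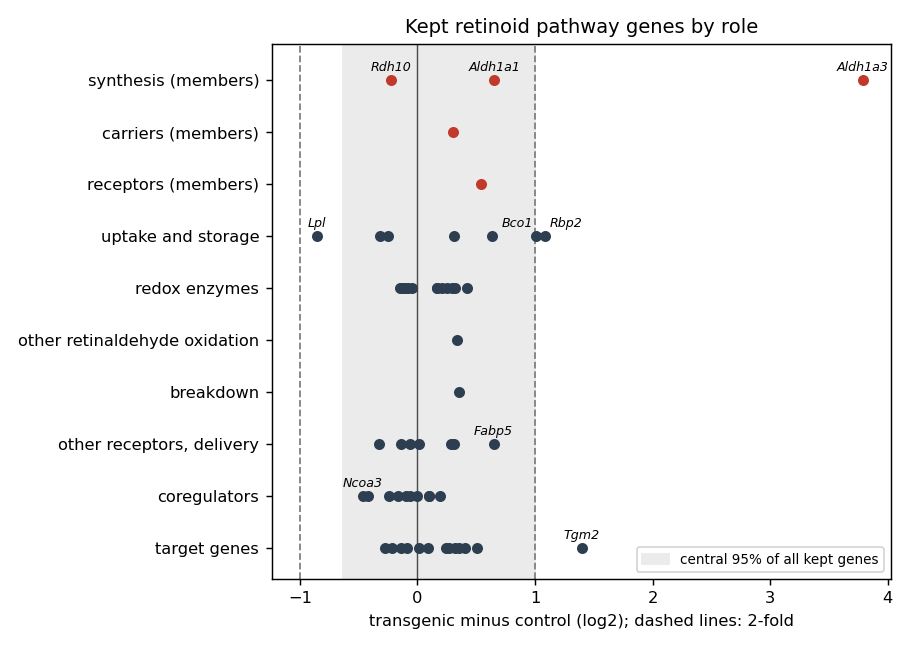
Transgenic minus control difference (log2, x axis) of each kept gene of the retinoid pathway, grouped by role; each point is 1 gene by its brightest probe set, members in red, and a gene held by several lists appears in each. The grey band is the central 95% of all kept genes (-0.63 to 1.0) and the dashed lines mark 2-fold. Aldh1a3 at 3.79, by probe set 1448789_at, lies apart from every other gene plotted.

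Genes that bring in and store vitamin A were the group with 2 of the 3 genes past 2-fold. Rbp2, the intestinal cellular retinol binding protein, read 6.70 in transgenic against 5.62 in control islets, 2.12-fold higher, with the control value below the floor, which limits this fold. Bco1, which cleaves beta-carotene to retinaldehyde, read 7.41 and 6.40, 2.01-fold higher. Scarb1, a receptor for lipoproteins that also takes up carotenoids, stood at 0.63 and the acyltransferase gene Dgat1 at 0.31. On the lower side were the lipoprotein lipase gene Lpl at -0.86, Rbp7 at -0.32 and Ttr, the transthyretin that carries Rbp4 in blood, at -0.25. Stra6, the receptor for Rbp4, was below the floor at 5.48 on both arrays, as was the retinol esterifying enzyme Lrat. Together 7 of 13 measured genes of this group were kept, with a median of 0.31.

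Rbp2 and Bco1 are best known from intestine, and enterocyte markers were higher in the same sample. Of 7 enterocyte markers with a value 5 were kept, all with positive differences, 3 of them past 2-fold, and their median was 1.38. Fabp1, Fabp2 and Apoa4 reached the floor only through the transgenic sample, which fixed their sign, and with no floor the median over all 7 was 0.81. Apoa1, also past 2-fold, was above the floor on both arrays, and its difference of 1.38 was the median of the kept markers. The 3 other Apoa1 probe sets at the floor were positive too. Fabp2 read 8.47 in transgenic against 3.64 in control islets, and Fabp1 7.96 and 3.66. The mean log2 value over the 7 markers was 7.12 in transgenic against 5.37 in control islets. Of the defining markers, Cdx2 (5.53 and 5.12) and Lct (difference 0.43) were below the floor on both arrays, and Vil1 differed by 0.048. The part of such markers in the Rbp2, Bco1 and Aldh1a3 differences was not tested.

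Of the enzymes that interconvert retinol and retinaldehyde 12 of 19 with a value were kept, and the kept ones stayed within a narrow range. None of 12 kept genes passed 2-fold, the lowest at -0.15 and the highest at 0.42, around a median of 0.17. Highest were the reductase gene Cbr4 at 0.42, Dhrs3, which returns retinaldehyde to retinol, at 0.32 and the alcohol dehydrogenase gene Adh7 at 0.29. Lowest were Dhrs7 at -0.15, the aldo-keto reductase gene Akr1b8 at -0.13 and Rdh11 at -0.11. Rdh9 (0.76), Adh4 (0.55) and Rdh7 (0.42) were among those below the floor on both arrays, so their differences cannot be read. Of 5 other enzymes that can oxidise retinaldehyde or retinol only the aldehyde oxidase gene Aox1 was kept, at 0.33. Of the retinoic acid hydroxylases, Cyp26b1 was the one kept gene, at 6.71 in transgenic against 6.36 in control islets, a difference of 0.35.

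No further nuclear receptor or coregulator passed 2-fold. Rarg, the third retinoic acid receptor, stood at 0.0094, Rxrb at 0.31 and Rxra at -0.33, although the other Rxra probe set at the floor gave 0.45. Fabp5, a fatty acid binding protein that can deliver retinoic acid to Ppard, was the highest of this group at 0.65, with Ppard itself at -0.064, Rora at -0.14 and Nr2f2 at 0.29. Of 10 kept coregulators 7 had negative differences, with a median of -0.082. Lowest were the coactivator genes Ncoa3 at -0.46 and Ncoa2 at -0.42 and the Mediator subunit gene Med1 at -0.24. Highest were Tbl1xr1 at 0.19, Nrip1 at 0.099 and the acetyltransferase gene Crebbp at 0.095. Probe sets of opposite sign were among the others of Rora, Ncoa2 and Nrip1, and also of Ncoa1 (-0.067) and Tbl1x (-0.097), which count among the 7.

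Among known target genes of retinoic acid 13 of 23 with a value were kept, and 1 of them passed 2-fold. Tgm2, transglutaminase 2, read 8.78 in transgenic against 7.39 in control islets, 2.64-fold higher, and the remaining 3 that reached the floor differed by 1.06 to 1.67. Tnip1, an inhibitor of NF-kB signalling, followed at 0.51 and the transcription factor gene Ets1 at 0.40. The homeobox genes Meis1 and Meis2 stood at -0.28 and -0.22, and Rarres2, which encodes chemerin, at -0.14 with its other probe set at 0.47. The list's median was 0.24, with 9 of 13 positive. Dhrs3, Cyp26b1 and Rarg belong to this list too, at the values above, and 10 genes were below the floor, among them Rarb, Crabp2, Cyp26a1, Stra6 and Lrat. Macrophages and stellate cells also express Tgm2. Of 10 kept macrophage markers 9 were positive and 3 passed 2-fold, with a median of 0.88 (Mpeg1 at 1.25 and C1qb at 1.15). Their mean log2 value over 14 genes was 7.52 in transgenic against 6.96 in control islets, with Itgam, Fcgr1, Mrc1 and Cx3cr1 below the floor. Of 10 kept stellate cell and fibroblast markers 8 were positive and 2 passed 2-fold, with a median of 0.83 (Col1a2 at 1.27 and Postn at 1.05). Their mean over 12 genes was 7.91 and 7.32, with Col1a1 and Pdgfra below the floor. The part of these cells in the Tgm2 difference was not tested.

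**Figure D3:**
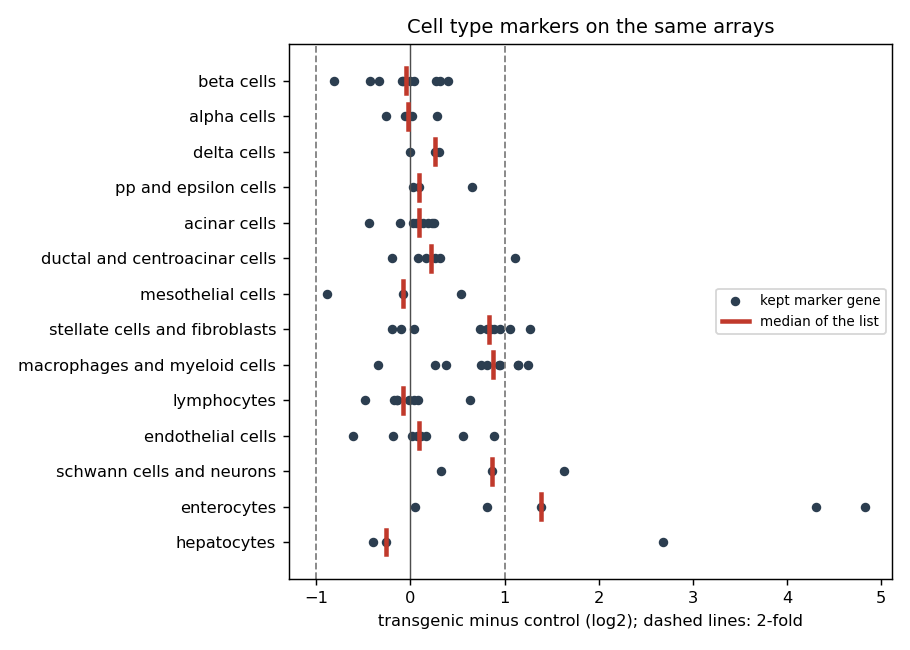
Transgenic minus control difference (log2, x axis) of each kept marker gene of the cell types that an islet sample can hold; points are genes, red bars the median of each list and dashed lines 2-fold. Medians were highest for enterocyte (1.38), macrophage (0.88), Schwann cell (0.87) and stellate cell (0.83) markers and near 0 for beta cell markers (-0.042).

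Markers of the cells known to express other members of the pathway were set beside them. Ductal and centroacinar cells, which express Aldh1a1, had a median of 0.22 over 6 kept markers. Prom1 was 2.15-fold higher and Krt19 stood at 0.32, while Car2, the 1 negative marker, stood at -0.19. Cftr and Onecut1 were below the floor. Mesothelial cells, which express Aldh1a2, had a median of -0.078 over 3 kept markers, with Msln at -0.89 and Gpm6a at 0.54. Their defining genes Wt1, Upk3b and Lrrn4 were below the floor on both arrays, as was Aldh1a2. Beta cell markers had a median of -0.042 over 10 kept genes, of which 4 were positive and 6 negative and none passed 2-fold. They ran from Ucn3, a peptide of mature beta cells, at -0.81 and the receptor gene Glp1r at -0.43 to Pdx1, a beta cell transcription factor, at 0.32 and Ero1b, an oxidase of protein folding, at 0.40. For Schwann cells and neurons 3 markers were kept (median 0.87), with Cdh19 at 1.63 from a control value below the floor and Erbb3 at 0.87. Of 3 kept hepatocyte markers Apob read 6.62 in transgenic against 3.94 in control islets, the latter below the floor, so its reading of 6.44-fold is limited by background, and Fgb stood at -0.40, with Alb below the floor. Medians of the remaining lists were 0.26 for delta cells (3 kept genes), 0.094 for PP and epsilon cells (3), 0.091 for endothelial cells (8), 0.089 for acinar cells (9), -0.020 for alpha cells (4) and -0.075 for lymphocytes (8), with no kept gene of these lists past 2-fold. The parts of these cell types in the member differences were not tested.

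Genes often named with Aldh1a3 in accounts of immature or dedifferentiated beta cells did not differ by as much as Aldh1a3 probe set 1448789_at. By 1427395_a_at Aldh1a3 differed by 0.71, less than Rest in this list at 0.76. Of 15 listed genes 14 had a value and 8 were kept. All 8 had positive differences by their brightest probe set, but none passed 2-fold, and the median was 0.21. Highest were Rest, a repressor of neuronal genes, at 0.76, Ldha, lactate dehydrogenase A, at 0.48, and the monocarboxylate transporter gene Slc16a1 at 0.38. Neurog3, the master factor of endocrine progenitors, read 6.70 in transgenic against 6.69 in control islets, a difference of 0.010. Foxo1 stood at 0.026 and Hk2 at 0.053. Gast, Pou5f1, Nanog, Mycl, Pdgfra and Cck were below the floor on both arrays.

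The kept genes whose pair of values was nearest to that of Aldh1a3, by Euclidean distance over the 2 arrays, were Ddias (0.43), Slc22a2 (0.51), Sv2c (0.71), Cldn2 (0.74) and Sspn (0.86). Ddias, an anti-apoptotic factor induced by DNA damage, read 8.86 in transgenic against 5.37 in control islets. Slc22a2, an organic cation transporter, read 8.35 and 5.27, and Sv2c, a synaptic vesicle protein, 8.39 and 5.57. Cldn2, a tight junction claudin, read 8.76 and 5.69, and Sspn, sarcospan of the dystrophin complex, 8.16 and 5.59. Each of the 5 had a control value below the floor. The distance rests on 2 values per gene, for Aldh1a3 those of 1448789_at, and describes these arrays only.

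**Figure D4:**
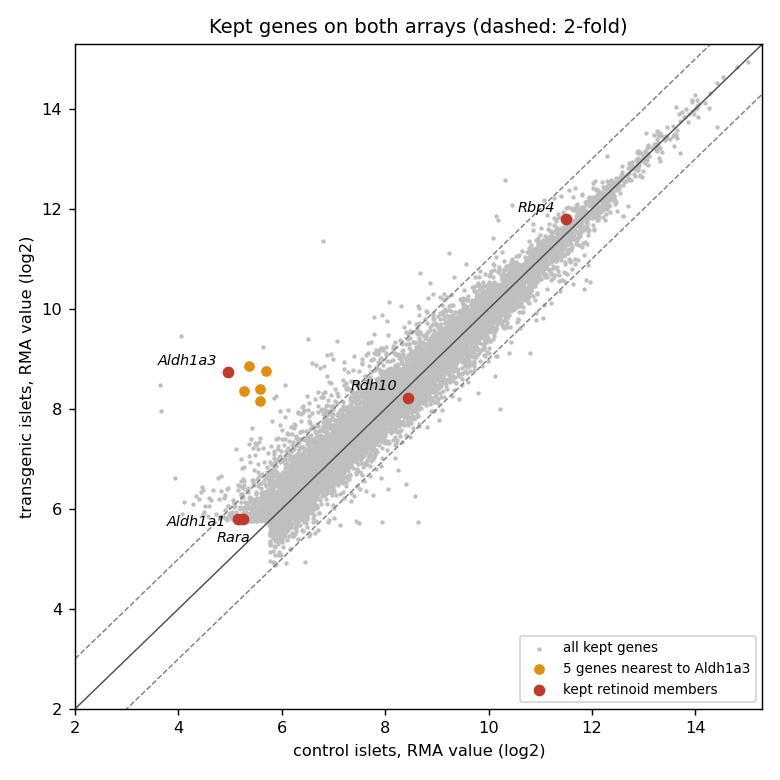
RMA value (log2) of each kept gene in the control (x axis) and transgenic (y axis) sample, 1 array each; the solid line is equality and the dashed lines are 2-fold. Of the 5 kept members (red) Aldh1a3 alone, drawn by probe set 1448789_at, lies beyond the upper dashed line. Near it are the 5 genes most like it (orange: Ddias, Slc22a2, Sv2c, Cldn2 and Sspn).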

How the data were processed

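The deposited table holds log2 expression values for 45101 probe sets in 2 samples. RMA in Affymetrix Expression Console gave these log2 values, per the submitters' processing notes on what the authors ran, and no version is stated there. RMA corrects background, equalises the arrays' distributions and summarises probes. Sorted values of both columns differed by at most 0.10. RMA values carry no detection call. The number of arrays, 1 per genotype, limits the precision, and no test was possible.

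Probe sets were named by the platform annotation (34945 with a single symbol, 932 with several, 9160 with none and 64 array controls). For 34741 of them the symbol was updated by gene identifier to GRCm38.p6. Genes were read by their brightest probe set (mean of both arrays), and the floor was the 50th percentile of all values. For Aldh1a3 this rule took 1448789_at only through its high transgenic value. In control islets 1427395_a_at read highest, at 6.30, against 5.03 for 1417642_at and 4.95 for 1448789_at. Members and the 26 lists were chosen with earlier results of these data known. Named genes were all members and, of each pathway list, the genes past 2-fold and the 3 highest and 3 lowest. Also named were up to 2 genes per marker list and the 5 nearest to Aldh1a3. Other genes named, such as Apoa1, Cpa1, Cyp26a1, Neurog3 and Stra6, were picked after their values were seen. Python 3.11.15, numpy 2.4.6, pandas 2.3.3, scipy 1.17.1 and statsmodels 0.14.6 were used.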

Additional observations from a re-analysis of the deposited data

How the results depend on the processing

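With the mean over its probe sets the Aldh1a3 difference was 1.90, and by single probe sets, chosen after seeing the data, it was 1.20 (1417642_at) and 0.71 (1427395_a_at). Read by the last, 0 members were 2-fold higher, and a 1.5-fold rule gave 2 members, Aldh1a3 and Aldh1a1. Of the further pathway genes 5 were higher and 1 lower at the 1.5-fold rule, and 1 was higher with a floor at the 75th percentile. At 2-fold, 2 in place of 3 were higher with the mean over probe sets and without the _s, _x and _a probe sets. The count was also 2 with a second quantile normalization and with median centring. Among all kept genes the 1.5-fold rule gave 939 higher and 381 lower, the 75th percentile floor 168 and 39, and the mean over probe sets 38 lower. The other 8 members kept their sign in all 38 values computed under the alternatives, and none passed 2-fold. The alternatives were the mean over probe sets and no _s, _x and _a probe sets. Further ones were a second quantile normalization, a lowess trend (span 0.3) subtracted and median centring. Much of this was fixed in advance. For the 7 members with 1 probe set the probe set alternatives return the same value or none. Median centring shifts every difference by 0.029, less than the smallest, 0.10 for Aldh1a2. The largest move of the 38 values was 0.041, against a median span of 0.28 between probe sets of a gene. Marker medians were recomputed as an addition made after seeing the data. The enterocyte median ran from 0.81 with no floor to 4.31 with the 75th percentile floor, and that of stellate cells was 0.55 without the _s, _x and _a probe sets. The Schwann cell median was 0.37 with no floor and 1.25 without those classes, the mesothelial one -0.89 with the 75th percentile floor or the mean over probe sets and -0.48 without those classes, the ductal one 0.60 with the 75th percentile floor, and the hepatocyte one 1.14 in place of -0.25 without those classes. The causes were not tested. No paired analysis was possible because each group has 1 sample. No replicate could be left out for the same reason. Values below the floor of 5.76 limit what these arrays can show for Aldh1a2, Crabp1, Crabp2 and Rarb.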

Other observations

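The wider aldehyde dehydrogenase family clears aldehydes in many pathways. It gave no second gene with a difference as large as that of Aldh1a3 probe set 1448789_at. By 1427395_a_at Aldh1a3 differed by 0.71, close in size to Aldh1l2 at -0.71. Of 17 listed family members other than Aldh1a1, Aldh1a2 and Aldh1a3, 12 were kept and none passed 2-fold in either direction, with a median difference of 0.11 and 8 of 12 positive. Highest were Aldh3a2, a fatty aldehyde dehydrogenase, at 0.50 (8.67 in transgenic against 8.17 in control islets), Aldh2, the mitochondrial enzyme of acetaldehyde, at 0.44 and Aldh16a1 at 0.25. Lowest was Aldh1l2, the mitochondrial enzyme of folate metabolism, at -0.71 (8.71 and 9.42), followed by Aldh18a1, of proline synthesis, at -0.26 and Aldh1l1, the cytosolic relative of Aldh1l2, at -0.24. The transgenic value of Aldh1l1 lay below the floor. Aldh1a7, Aldh1b1, Aldh3a1, Aldh3b2 and Aldh8a1 were below it on both arrays, so their differences cannot be read.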
